A study of Mus musculus with 12 samples.

Results

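The genes of the bone morphogenetic protein (BMP) pathway described here are 4 ligand genes (Bmp2, Bmp4, Bmp6 and Gdf10), 3 receptor genes (Bmpr2, Acvrl1 and Eng), the inhibitory SMAD gene Smad6, the target gene Id1 and the extracellular modulator gene Bmper. They were chosen by name, with earlier results of these data known. Each was read from the brightest array row whose annotation names that gene alone. Each of the 10 genes had a single such row. They are 10 of 30743 genes with a row of their own, of which 19675 were bright enough to test, and all 10 lay above the median of all rows on each of the 12 arrays.

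Endothelial cells were sorted from ear skin of C57BL6 mice that were 5 weeks old according to the study design and adult according to the sample labels. Every group carried the same transgene, Tg(Prox1-EGFP)KY221Gsat, in which Prox1 regulatory sequence drives a green fluorescent protein in lymphatic endothelial cells (LEC), and all cells were first enriched on beads against PECAM1. The groups were col LEC, from collecting vessels, with little or no surface LYVE1, pre-col LEC, from pre-collecting vessels, with LYVE1 in between, cap LEC, from capillaries, with high LYVE1, and BEC, the blood endothelial cells, which lacked PDPN, the reporter and LYVE1. Each group had 3 arrays labelled as biological replicates. The labels do not say whether an array holds RNA of 1 mouse or of a pool. If the cells of a group were not kept apart by animal, p-values measure only the spread between these arrays.

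BMP ligands are secreted dimers that bring type I and type II serine/threonine kinase receptors together at the cell surface. The active complex phosphorylates SMAD1, SMAD5 and SMAD9, which enter the nucleus with SMAD4 and switch on targets such as the Id genes and the feedback inhibitors Smad6 and Smad7. In endothelium the main route runs through the type I receptor ALK1 (gene Acvrl1), the type II receptor BMPR2 and the co-receptor endoglin (gene Eng), with circulating BMP9 and BMP10 as high-affinity ligands. This route is known for its part in blood vessel remodelling and in the formation of lymphatic valves.

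All values are log2 RMA values, so that 1 unit is a doubling of signal, and a level can be compared between arrays but not between genes. A gene was called when limma's test gave a Benjamini-Hochberg adjusted p under 0.05 over the 19675 genes, with all 12 arrays in the fit. Array medians lay between 6.06 and 6.17, and the number of arrays limits the precision. The labels could be checked against marker genes. Of 8 lymphatic endothelial genes measured, 7 were higher in LEC than in BEC, and 8 of 8 blood endothelial genes were lower, with the caveat that PDPN, LYVE1 and the Prox1 reporter were used in the sort. Markers of other cell types were read as well. The linear values of 13 mural cell genes (pericytes and smooth muscle) summed to 2510 to 2724 in col LEC, 2628 to 5877 in pre-col LEC, 2462 to 3093 in cap LEC and 11350 to 13640 in BEC arrays. For 11 fibroblast genes the sums were 1305 to 2415 in col LEC, 1456 to 4378 in pre-col LEC, 1243 to 1565 in cap LEC and 1904 to 2409 in BEC. The highest LEC sums of both lists belonged to pre-col LEC replicate 1, and the next highest fibroblast sum in LEC to col LEC replicate 1.

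**Figure D1:**
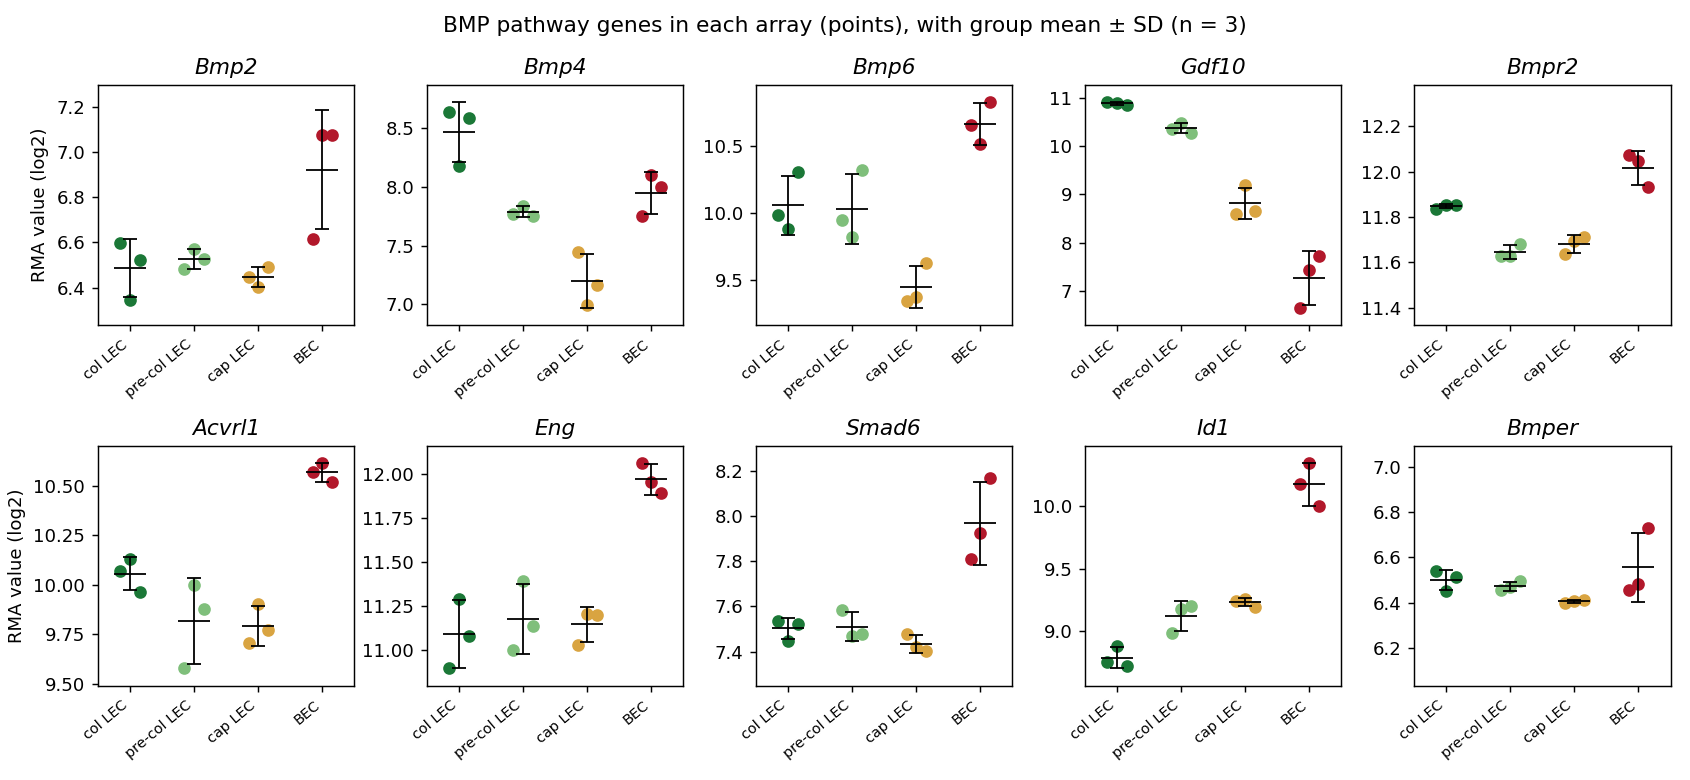
Log2 RMA value (vertical axis) of each of the 10 BMP genes in col LEC, pre-col LEC, cap LEC and BEC, with 1 point per array and the group mean ± SD (n = 3) in black. Gdf10 steps down along col LEC, pre-col LEC, cap LEC and BEC, Bmp4 is highest in col LEC, and Id1, Eng and Acvrl1 are highest in BEC.

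Among the ligands, Gdf10 and Bmp4 differed most along the lymphatic tree. Both were higher in collecting than in capillary cells, Gdf10 by 4.18-fold and Bmp4 by 2.4-fold, with pre-collecting cells between them. Gdf10 (transcript cluster TC1400000363.mm.1) encodes a ligand close to BMP3, and Bmp4 (TC1400001914.mm.1) encodes a classical BMP that activates SMAD1 and SMAD5. The 2 genes also differed in their relation to blood endothelium, where Gdf10 was lowest and Bmp4 was not.

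The windows around the start of these 2 genes are shown because the genes carry the contrast between LEC subtypes, and that of Smad6 because the gene is a direct SMAD target. They run from 250 bases before to 50 bases after the start used for each gene on GRCm38.p6, 5′ to 3′ on the strand of the gene. For Smad6 the start used lies inside the RefSeq span of the gene, which reaches 64022085 on the minus strand. Capitals mark GGCGCC, the core of a BMP response element, or GTCTAGAC, the palindromic SMAD box. Gdf10 lies at chr14:33923337-33923636 on the plus strand, Bmp4 at chr14:46390620-46390919 on the minus strand and Smad6 at chr9:64022010-64022309 on the minus strand.
Gdf10: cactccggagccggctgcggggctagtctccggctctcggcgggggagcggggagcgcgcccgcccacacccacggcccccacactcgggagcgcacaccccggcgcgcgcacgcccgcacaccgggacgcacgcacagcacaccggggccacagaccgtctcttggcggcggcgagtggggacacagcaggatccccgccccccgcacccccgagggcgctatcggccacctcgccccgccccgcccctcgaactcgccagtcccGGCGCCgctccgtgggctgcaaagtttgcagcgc
Bmp4: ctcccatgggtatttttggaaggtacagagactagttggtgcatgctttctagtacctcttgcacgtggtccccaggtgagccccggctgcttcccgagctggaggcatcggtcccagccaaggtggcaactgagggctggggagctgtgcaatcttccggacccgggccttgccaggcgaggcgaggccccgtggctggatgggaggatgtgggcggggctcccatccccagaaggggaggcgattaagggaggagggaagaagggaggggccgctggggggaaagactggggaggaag
Smad6: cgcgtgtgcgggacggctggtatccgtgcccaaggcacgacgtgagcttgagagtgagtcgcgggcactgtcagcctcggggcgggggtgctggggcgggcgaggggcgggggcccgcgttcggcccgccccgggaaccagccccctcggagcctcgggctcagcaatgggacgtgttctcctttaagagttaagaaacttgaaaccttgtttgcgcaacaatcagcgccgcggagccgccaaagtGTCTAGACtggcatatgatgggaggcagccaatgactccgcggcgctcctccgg
Both motifs are palindromes, so that 1 strand covers both, and neither contains the other. RefSeq windows were at hand for 7 of the 10 genes. GTCTAGAC stood in the window of Smad6 alone among them, and in 0.213% of 32851 windows in all. In Smad6 it began 4 bases before the start used for the window, which places it inside the RefSeq span of the gene. GGCGCC stood in the windows of Gdf10 and Bmpr2 and in 11.9% of all windows. A match of letters is a description and not a binding site, and its absence says only that these letters are not in the window.

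Gdf10 was at 10.90, 10.89 and 10.85 in the col LEC arrays, at 10.35, 10.48 and 10.27 in pre-col LEC, at 8.59, 9.19 and 8.66 in cap LEC and at 6.65, 7.44 and 7.73 in BEC. No array of one group reached the range of another, and the groups lay in the order col LEC, pre-col LEC, cap LEC and BEC. The col LEC minus cap LEC difference amounted to 2.07 ± 0.23 on the log2 scale (SE, n = 3 per group, limma adjusted p = 0.000573). Against BEC the log2 fold changes were 3.61 ± 0.23 for col LEC, 3.09 ± 0.23 for pre-col LEC and 1.54 ± 0.23 for cap LEC (adjusted p = 2.97e-07, 1.14e-06 and 0.0004). Pre-col LEC minus cap LEC was 1.55 (95% interval 1.05 to 2.06) and was not called (adjusted p = 0.0691, the lowest in that contrast, which Gdf10 shared with several other genes). It was called after cyclic loess between arrays (log2 fold change 1.60, adjusted p = 0.0493) and when arrays were weighted (1.38, adjusted p = 0.015). The step between col LEC and pre-col LEC, 0.51 with an interval of 0.01 to 1.01, was not called (adjusted p = 0.838).

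Bmp4 had values of 8.64, 8.18 and 8.59 in col LEC, 7.77, 7.84 and 7.76 in pre-col LEC, 7.45, 6.99 and 7.17 in cap LEC and 7.75, 8.10 and 7.995 in BEC. Every col LEC array was above every other array, every cap LEC array was below, and pre-col LEC overlapped with BEC. Col LEC minus cap LEC was 1.27 ± 0.14 (SE, n = 3 per group, limma adjusted p = 0.000724). BEC stood between the ends of the lymphatic tree: col LEC was higher than BEC by 0.52 ± 0.14 (adjusted p = 0.028) and for cap LEC the log2 fold change was -0.75 ± 0.14 (adjusted p = 0.00274). The col LEC call against BEC ended without col LEC replicate 1 or 3 (adjusted p = 0.107 and 0.108) and without BEC replicate 1 or 3 (adjusted p = 0.0938 and 0.0628). It also ended under array weights, at adjusted p = 0.0825, and when only these groups were fitted (adjusted p = 0.0654). Averaged over LEC groups, LEC minus BEC was -0.13 (interval -0.39 to 0.13, adjusted p = 0.46). Steps of 0.59 for pre-col LEC minus cap LEC and 0.68 for col LEC minus pre-col LEC did not pass the test (adjusted p = 0.456 and 0.107), and the step between col LEC and pre-col LEC was called with array weights (adjusted p = 0.048).

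Values of the LEC arrays richest in fibroblast and mural genes are given beside these ligands. Pre-col LEC replicate 1 had the highest sums of both lists among LEC arrays, while its Gdf10 (10.35) and Bmp4 (7.77) lay between those of the other pre-col LEC arrays. Col LEC replicate 1, the col LEC array with the most fibroblast signal, had the highest Gdf10 and Bmp4 of its group. Without that array, col LEC minus cap LEC was 2.05 for Gdf10 (limma adjusted p = 0.00379) and 1.18 for Bmp4 (adjusted p = 0.00457). With all arrays the values were 2.07 and 1.27. Over the 9 fibroblast genes tested, limma called 0 between col LEC and cap LEC (0 had an unadjusted p under 0.05), but 8 of 9 were above 0, with a median log2 fold change of 0.16. In pre-col LEC minus cap LEC 9 of 9 were above 0, with a median of 0.42. The part of fibroblast RNA in the differences of Gdf10 and Bmp4 was not tested.

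Bmp6 and Bmp2 encode 2 further ligands that act through SMAD1 and SMAD5. Bmp6 (TC1300000445.mm.1) was at 9.99, 9.88 and 10.30 in col LEC, 9.95, 9.82 and 10.32 in pre-col LEC, 9.35, 9.37 and 9.63 in cap LEC and 10.65, 10.51 and 10.83 in BEC. The cap LEC arrays lay below all others and the BEC arrays above all others, while col LEC and pre-col LEC overlapped. LEC minus BEC was -0.82 ± 0.12 (SE, 9 LEC against 3 BEC arrays, limma adjusted p = 0.000354), and cap LEC minus BEC was -1.22 ± 0.15 (adjusted p = 8.79e-05). Col LEC minus cap LEC was 0.61 (interval 0.28 to 0.94) and was not called (adjusted p = 0.0778). It was called in 2 of 12 alternatives, with the replicate number as a block (0.61, adjusted p = 0.00366) and under array weights (0.69, adjusted p = 0.0211). Bmp2 (TC0200002052.mm.1) was dim in all groups, at 6.60, 6.35 and 6.52 in col LEC, 6.48, 6.57 and 6.53 in pre-col LEC, 6.45, 6.40 and 6.49 in cap LEC and 6.62, 7.07 and 7.07 in BEC. The LEC groups overlapped, and 1 BEC array was within 0.1 of the highest LEC array. For Bmp2, LEC minus BEC was -0.43 ± 0.10 (adjusted p = 0.00594), and col LEC minus cap LEC was 0.04 (interval -0.22 to 0.30, adjusted p = 0.922).

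The receptors were lower in lymphatic than in blood endothelium, and none of the 3 was called between LEC groups in the fit with all arrays. Eng (TC0200005472.mm.1), the co-receptor of ALK1, was at 10.90, 11.29 and 11.08 in col LEC, 11.005, 11.40 and 11.14 in pre-col LEC, 11.03, 11.21 and 11.20 in cap LEC and 12.07, 11.96 and 11.89 in BEC. All 9 LEC arrays were below all BEC arrays, and the LEC groups overlapped. The LEC minus BEC value was -0.83 ± 0.10, which is 0.561 of the BEC signal (limma adjusted p = 4.71e-05), and col LEC minus cap LEC was -0.06 (interval -0.32 to 0.21, adjusted p = 0.898).

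Acvrl1 (TC1500001061.mm.1), which encodes ALK1, had 10.07, 10.13 and 9.97 in col LEC, 9.58, 9.998 and 9.88 in pre-col LEC, 9.71, 9.90 and 9.77 in cap LEC and 10.57, 10.61 and 10.52 in BEC. Again the BEC arrays stood above all LEC arrays, and col LEC lay above cap LEC without overlap. For Acvrl1, LEC minus BEC was -0.68 ± 0.09 (adjusted p = 9.12e-05), and col LEC minus cap LEC was 0.26 (interval 0.03 to 0.49) and was not called (adjusted p = 0.378). Bmpr2 (TC0100000462.mm.1), the type II receptor, was at 11.84, 11.86 and 11.86 in col LEC, 11.63, 11.63 and 11.68 in pre-col LEC, 11.64, 11.69 and 11.71 in cap LEC and 12.07, 12.05 and 11.93 in BEC. Its spread was small enough for col LEC to stand above both other LEC groups and below BEC without overlap, by steps of 0.17 to 0.20 in the means. For Bmpr2, LEC minus BEC was -0.29 ± 0.06 (adjusted p = 0.00203), while col LEC minus cap LEC at 0.17 (adjusted p = 0.379) and col LEC minus BEC at -0.17 (adjusted p = 0.127) were not called. The second of these was called after cyclic loess (-0.29, adjusted p = 0.00253).

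Id1 and Smad6 are targets of SMAD signalling that BMP switches on in many cells, but SMAD activity itself was not measured here. Id1 (TC0200002298.mm.1), an inhibitor of basic helix-loop-helix transcription factors, was at 8.75, 8.88 and 8.72 in col LEC, 8.99, 9.18 and 9.20 in pre-col LEC, 9.24, 9.26 and 9.20 in cap LEC and 10.18, 10.35 and 10.0004 in BEC. It was highest in all BEC arrays and lowest in all col LEC arrays, with pre-col LEC and cap LEC overlapping. LEC minus BEC was -1.13 ± 0.08, or 0.457 of the BEC signal (limma adjusted p = 4.87e-07). Col LEC minus cap LEC was -0.45 ± 0.10 (adjusted p = 0.0474), opposite in sign to Bmp4 and Gdf10 in the same contrast. That call stood close to the threshold: it ended without col LEC replicates 1, 2 and 3 (adjusted p = 0.165, 0.0756 and 0.168), without cap LEC replicates 1, 2 and 3 (adjusted p = 0.134, 0.166 and 0.117) and without the filter on dim genes (adjusted p = 0.0582), with log2 fold changes of -0.49 to -0.41. Of 16 immediate early genes, which respond to handling of cells, 0 were called between col LEC and cap LEC by limma's test. Of these genes, 3 had an unadjusted p under 0.05, against 10.5% of all genes, and the median log2 fold change of the 16 was 0.19. In LEC minus BEC 3 of the 16 were lower (Nr4a1 -1.49, Ier3 -0.82 and Ier2 -0.71) and 0 higher, against 10.6% and 12% of all genes. The median of the 16 was -0.26 there, against -0.02 over all genes. The part of handling in the Id1 differences was not tested.

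Smad6 (TC0900002486.mm.1), whose start window with the SMAD box is printed above, was at 7.53, 7.45 and 7.52 in col LEC, 7.58, 7.47 and 7.48 in pre-col LEC, 7.48, 7.42 and 7.40 in cap LEC and 7.81, 7.93 and 8.17 in BEC. The LEC groups overlapped each other and lay below BEC. For Smad6, LEC minus BEC was -0.48 ± 0.07 (adjusted p = 0.000429), and col LEC minus cap LEC was 0.07 (interval -0.13 to 0.27, adjusted p = 0.825). Bmper (TC0900000226.mm.1), a secreted BMP-binding protein that can hold back or promote signalling, was dim, at 6.54, 6.45 and 6.51 in col LEC, 6.46, 6.47 and 6.49 in pre-col LEC, 6.40, 6.41 and 6.41 in cap LEC and 6.46, 6.48 and 6.73 in BEC. No contrast called it. LEC minus BEC was -0.10 (interval -0.24 to 0.05, adjusted p = 0.329), and the highest value belonged to BEC replicate 3.

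**Figure D2:**
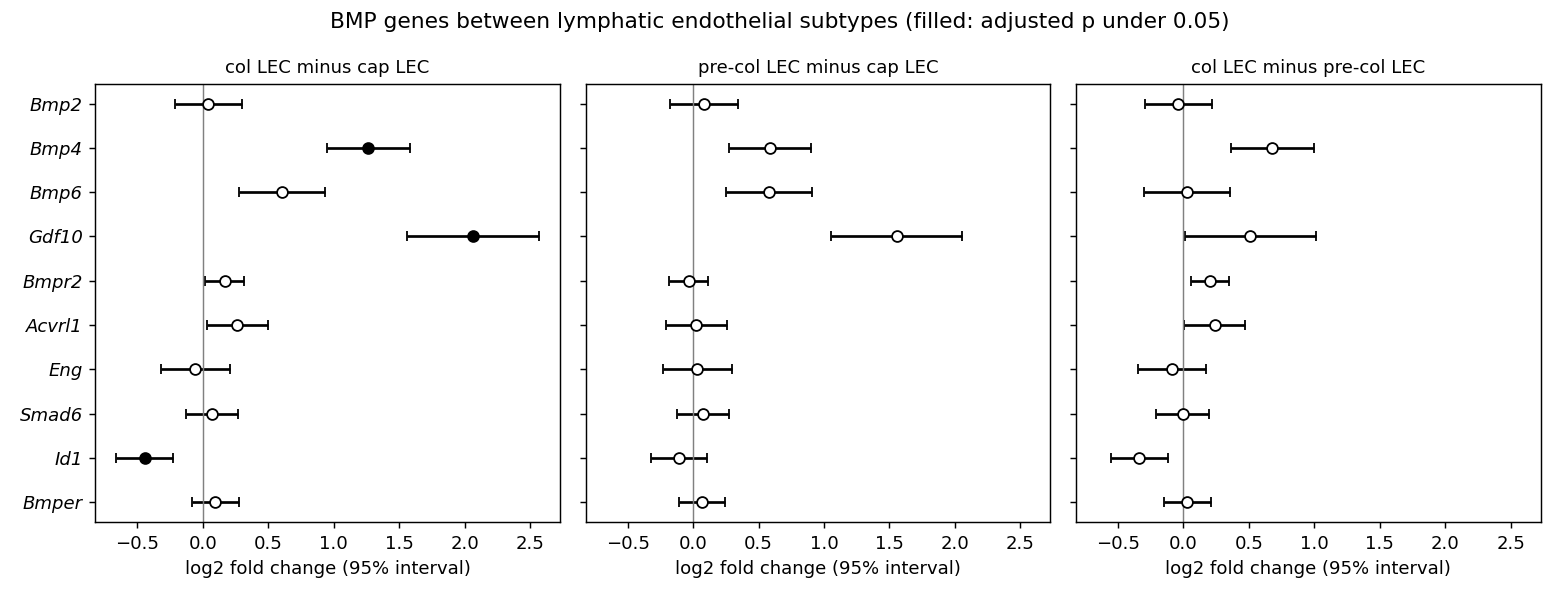
Log2 fold change with its 95% interval (horizontal axis) for the 10 BMP genes in 3 panels, for col LEC against cap LEC, for pre-col LEC against cap LEC and for col LEC against pre-col LEC; filled points had a limma adjusted p below 0.05. Gdf10 (2.07), Bmp4 (1.27) and Id1 (-0.45) are filled in the first panel, and no gene is filled in the other panels.

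The 10 genes and the wider lists were chosen with earlier results of these data known, so the counts here and below are a description. Counted over the 10 genes, col LEC minus cap LEC had 2 higher (Bmp4 and Gdf10) and 1 lower (Id1), against 1.64% of all genes called in either direction, 0.651% higher and 0.986% lower, and the count was 2 without any 1 of the 6 arrays of these groups. The median log2 fold change of the 10 genes was 0.13, against 0.03 over all genes tested. Pre-col LEC minus cap LEC called 0 of the 10 and 0% of all genes with limma's test, although 1257 genes (6.39%) had an unadjusted p under 0.05, among them Gdf10, Bmp4 and Bmp6. With array weights and after cyclic loess, Gdf10 was the 1 gene of the 10 called there. Col LEC minus pre-col LEC called 0 of the 10, against 0.3% of all genes. Of the 10, Bmp4, Gdf10, Bmpr2, Acvrl1 and Id1 had an unadjusted p under 0.05 there, against 5.84% of all genes. Bmp4 was called there with array weights.

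LEC minus BEC called 8 of the 10, 1 higher (Gdf10) and 7 lower (Bmp2, Bmp6, Bmpr2, Acvrl1, Eng, Smad6 and Id1), against 22.6% of all genes called, of which 12% were higher and 10.6% lower. All 8 calls were kept in each of the 17 alternative settings run for this contrast, some of which could move only p-values. The median log2 fold change of the 10 genes was -0.46, against -0.02 over all genes. Subtype by subtype, 2 were higher and 6 lower in col LEC, where 16.2% of all genes were called (8.31% higher and 7.93% lower). In pre-col LEC 1 was higher and 7 lower, against 15.5% of all genes (7.38% higher and 8.15% lower). Of those 7 calls, that of Bmp2 (limma adjusted p = 0.0416) was kept in 4 of 12 alternatives and that of Bmp6 in 9 of 12. In cap LEC 1 was higher and 8 lower, against 20.7% of all genes (11.2% higher and 9.55% lower). These comparisons share the same BEC arrays. Without BEC replicate 3 the col LEC count was 5, since Bmp2, Bmp4 and Bmp6 were no longer called (adjusted p = 0.1, 0.0628 and 0.0673). Mural cell genes moved with this contrast, 12 of 13 being lower in LEC with a median of -1.70, and Rgs5, a pericyte gene, was at 6.95, 8.15 and 6.90 in col LEC, 10.21, 8.91 and 7.93 in pre-col LEC, 8.75, 6.67 and 7.04 in cap LEC and 11.82, 11.40 and 11.12 in BEC. For a list of 5 adipocyte and Schwann cell genes the sums were 691.8 to 795 in col LEC, 496.9 to 742 in pre-col LEC and 405.7 to 605.9 in cap LEC, against 2897 to 4102 in BEC; it holds Fabp4, which blood capillaries also express. The part of these genes in the BMP differences between LEC and BEC was not tested. Pre-col LEC replicate 1, with the highest mural sum among LEC arrays, had values of Eng (11.005), Acvrl1 (9.58) and Id1 (8.99) below those of both other pre-col LEC arrays. Its Bmp2 was also below them, its Bmp6 lay between them and its Smad6 was above them. In such bulk samples, fewer cells of a type and less RNA per cell cannot be told apart.

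The wider pathway was read from a list of 63 genes, of which 55 were tested. Bmpr1a and Bmpr1b, the type I receptors of BMP2 and BMP4, lay below the array median on all 12 arrays and were not tested. Between col LEC and cap LEC, 2 genes beyond the 10 were called, and both were higher in col LEC. Bambi, a decoy receptor without a kinase domain, was at 8.83, 9.24 and 9.03 in col LEC, 8.25, 8.32 and 8.32 in pre-col LEC, 8.57, 8.25 and 8.35 in cap LEC and 8.52, 9.03 and 8.62 in BEC. Its col LEC minus cap LEC difference was 0.64 ± 0.14 (SE, n = 3, limma adjusted p = 0.0467). Fstl1, a secreted glycoprotein that binds BMP4, was higher by 0.43 ± 0.09 (adjusted p = 0.0321), with means of 11.72 ± 0.09 in col LEC, 11.39 ± 0.13 in pre-col LEC, 11.30 ± 0.04 in cap LEC and 10.76 ± 0.10 in BEC (SD, n = 3). The Fstl1 call ended without col LEC replicates 1, 2 and 3 (adjusted p = 0.067, 0.133 and 0.0974) and without cap LEC replicates 1, 2 and 3 (adjusted p = 0.096, 0.132 and 0.0871). Bambi lost its call without col LEC replicates 2 and 3 (adjusted p = 0.161 and 0.128) and without cap LEC replicates 1, 2 and 3 (adjusted p = 0.0564, 0.186 and 0.152). The Bambi call also ended without the filter on dim genes (adjusted p = 0.0633) and when only these groups were fitted (adjusted p = 0.0667). In all, 4 of the 55 were higher and 1 lower, against 0.651% and 0.986% of all genes, with a median of 0.05 against 0.03 over all genes.

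Against BEC, the pathway is given role by role, and each count stands beside 12% of all genes called higher and 10.6% called lower in LEC, with a median of -0.02. Receptors and co-receptors were mostly lower in LEC, 7 of 10 being lower and 1 higher, with a median log2 fold change of -0.31. Of 11 general endothelial genes, a list that moved in the same direction, 6 were lower and 1 higher in this contrast, with a median of -0.28. Their part in the receptor differences was not tested. The type II receptor genes Acvr2a (-0.56) and Acvr2b (-0.33) and the co-receptor gene Tgfbr3 (-0.35) joined Eng, Acvrl1 and Bmpr2 on the lower side, and the co-receptor gene Rgma was higher (0.36 ± 0.07, adjusted p = 0.00319). Rgmb (-0.26, adjusted p = 0.039) lost its call in 11 of 17 alternatives. Acvr2b lost its call without BEC replicate 3 (adjusted p = 0.079).

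Among the SMADs that carry the signal, those called were higher in LEC. Smad1 was higher in LEC by 0.79 ± 0.07 (limma adjusted p = 4.51e-06), at 10.91 ± 0.04 in col LEC, 10.94 ± 0.09 in pre-col LEC and 10.99 ± 0.10 in cap LEC, against 10.16 ± 0.12 in BEC (SD, n = 3 each). Smad5 was higher by 0.61 ± 0.10 (adjusted p = 0.000465). Smad4, the common partner, was at 0.25 ± 0.08 (adjusted p = 0.0438), a call lost in 12 of 17 alternatives. Smad9 was not called (-0.04, adjusted p = 0.78). The list of 6 genes also holds the ubiquitin ligase genes Smurf1 and Smurf2, which were not called. Of the 6, 3 were higher, Smad4 included, and 0 lower, against 12% and 10.6% of all genes.

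Targets and feedback inhibitors were mostly lower in LEC, with 8 of 11 lower and 1 higher, against 10.6% and 12% of all genes, and a median of -0.48. Smad7, the other inhibitory SMAD, was at 7.14 ± 0.10 in col LEC, 7.09 ± 0.02 in pre-col LEC and 6.87 ± 0.17 in cap LEC, against 8.09 ± 0.18 in BEC, a log2 fold change of -1.06 ± 0.09 (adjusted p = 2.09e-06). The transcription factor genes Msx1 (-0.92) and Atoh8 (-0.78) were lower too, as was Id3 (-0.53 ± 0.10, adjusted p = 0.00197). Id2 was the exception, higher in LEC by 0.85 ± 0.14 (adjusted p = 0.000634). Its arrays read 9.26, 9.33 and 9.60 in col LEC, 9.76, 9.80 and 9.90 in pre-col LEC, 9.94, 10.15 and 10.08 in cap LEC and 8.61, 9.38 and 8.73 in BEC. Like Id1, Id2 was lowest among LEC in the collecting cells, but its col LEC minus cap LEC difference of -0.66 was not called (adjusted p = 0.0878). Id4 (-0.36, adjusted p = 0.0443) kept its call in 4 of 17 alternatives, and Hey1 (-0.47, adjusted p = 0.0195) lost it without BEC replicate 2 (adjusted p = 0.0924).

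Of 13 ligands tested in the whole ligand list, 1 was higher and 3 lower in LEC, against 22.6% of all genes called in either direction in this contrast. Bmp5, counted among the lower ones, was above the array median on 3 arrays only and passed the filter through BEC, so its levels are given as a description. Bmp5 read 5.32 ± 0.08 in col LEC, 5.35 ± 0.16 in pre-col LEC and 5.33 ± 0.17 in cap LEC, all below the array medians, against 6.33 ± 0.14 in BEC. Among 15 extracellular modulators, 4 were higher and 2 lower, against 12% and 10.6% of all genes. Mgp, a matrix protein that binds and inhibits BMPs, had the largest difference of the pathway, at -3.73 ± 0.21 (adjusted p = 7.19e-08), with 6.65 ± 0.22 in col LEC, 6.95 ± 0.62 in pre-col LEC and 6.46 ± 0.22 in cap LEC, against 10.42 ± 0.30 in BEC. Its highest LEC value, 7.64, was that of pre-col LEC replicate 1, and smooth muscle also expresses Mgp. Nbl1, a secreted antagonist, was lower in LEC, at -0.23 (adjusted p = 0.0172). Higher in LEC were Twsg1, a chordin partner (1.08 ± 0.09, adjusted p = 2.01e-06), Tll1 (1.16) and Bmp1 (0.81), metalloproteinases that cleave chordin, and Fstl1 (0.71). Over all 55 genes, 10 were higher and 20 lower, Bmp5 included, against 12% and 10.6% of all genes, with a median of -0.13 against -0.02 over all genes tested.

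**Figure D3:**
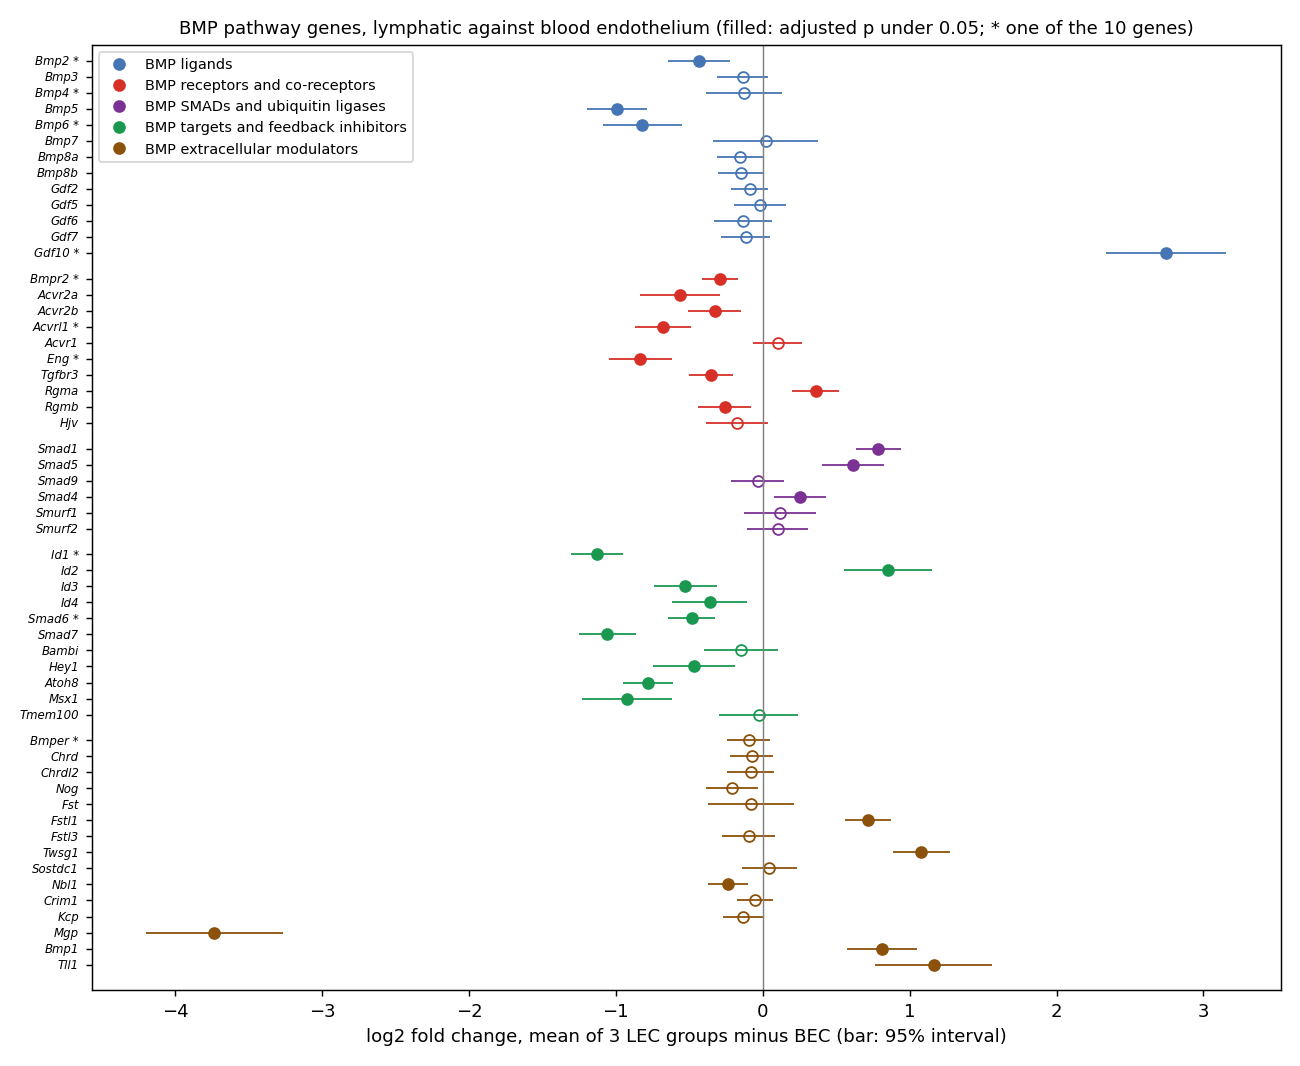
Log2 fold change between LEC, averaged over its 3 groups, and BEC (horizontal axis) with its 95% interval for the 55 tested BMP pathway genes, coloured by role; filled points had a limma adjusted p below 0.05, and stars mark the 10 genes. Receptors and targets lie mostly below 0, Smad1, Smad5 and Smad4 above 0, Gdf10 is highest at 2.75 and Mgp lowest at -3.73.

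For Gdf10, Bmp4 and Id1, the genes called between LEC groups, the 2 genes with the highest Pearson correlation over the 12 arrays were looked up outside the pathway list. For Gdf10 these were Ccdc3 (r = 0.98) and Neo1, the neogenin receptor gene (r = 0.97). For Bmp4 they were Thbs4, a matrix thrombospondin (r = 0.90), and Tm6sf1 (r = 0.90), and for Id1 they were Plpp3, a lipid phosphatase (r = 0.98), and Adgrl4, an endothelial adhesion receptor (r = 0.98). The 12 arrays share 4 group means, so these values describe a like order of groups. Among the 9 LEC arrays alone the same pairs had r of 0.96 and 0.94 for Gdf10, 0.97 and 0.90 for Bmp4, and 0.89 and 0.84 for Id1. These 9 arrays were among the 12 used to pick the pairs and also share group means, so these values are no separate check. Thbs4 was at 7.48 ± 0.07 in col LEC, 7.17 ± 0.05 in pre-col LEC, 6.94 ± 0.03 in cap LEC and 7.09 ± 0.03 in BEC (SD, n = 3), so that, like Bmp4, it was highest in col LEC and lowest in cap LEC.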

How the data were processed

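RNA of sorted cells (500 pg per sample) was amplified and hybridised to whole-transcript arrays, per the labels' protocols. The authors deposited log2 values for 72688 rows of 12 arrays, made by RMA (background correction, quantile normalization and summary of probes) per the submitters' processing notes. For software version and genome build, nothing is given in the sources used here. GEO's platform annotation named 1 gene for 30604 rows and several symbols for 2146, of which 612 were synonyms of 1 gene. The brightest row of each of 30743 genes was kept, and 827 symbols were updated through RefSeq. Genes above their array's median on at least 3 arrays (19675) were fitted with limma 3.58.1 in R 4.3.3, with group means over all 12 arrays, eBayes and 7 contrasts, two-sided, which share arrays. The fit was tested on simulated data. Named genes were the 10 genes, every other pathway gene called in any contrast, and the 2 genes most like each of the 10 that was called between LEC groups. Members and lists were chosen with earlier results of these data known. The alternatives were leaving out each array, the replicate number as a block, no filter on dim genes, cyclic loess, the mean of a gene's rows, array weights, and fitting only the groups compared.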

Additional observations from a re-analysis of the deposited data

How the results depend on the processing

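Of 890 alternative values for the 10 genes in 7 contrasts, 829 kept their direction and side of the threshold, 34 lost and 6 gained a call, and 21 changed sign with no call before or after. Part of this agreement was fixed in advance. The replicate block, no filter on dim genes, the mean of a gene's rows and fitting only the groups compared left the log2 fold changes of these genes unchanged. In these settings only p-values could move. Without 1 array, the members called were 2 (3 with all arrays) for col LEC minus cap LEC, 5 to 7 (8) for col LEC minus BEC, 6 to 8 (8) for pre-col LEC minus BEC and 8 to 9 (9) for cap LEC minus BEC, with 8 (8) for LEC minus BEC and 0 (0) for the others. Pathway genes called were 2 to 3 (5) for col LEC minus cap LEC, and all genes called were 180 to 205 (322) there, 24 to 47 (59) for col LEC minus pre-col LEC and 0 to 1 (0) for pre-col LEC minus cap LEC. Between pre-col LEC and cap LEC, cyclic loess called 13 genes and 1 member, array weights 28 and 1, and the replicate block 3 genes; the 1 pathway gene called under loess and weights was Gdf10. With array weights, col LEC minus cap LEC had 792 genes and 9 pathway genes, and col LEC minus pre-col LEC 153 genes, 2 pathway genes and 1 member. Without the filter, 3 pathway genes were called between col LEC and cap LEC. Fitting only the groups compared gave 5 genes for col LEC minus pre-col LEC, and could add nothing to LEC minus BEC, which uses all groups. The cause of these shifts was not tested. Same-numbered arrays of different groups correlated in their deviations from group means at -0.09 to 0.21 over 18 pairs (median 0.09), 7 of them above 0.1. Arrays with different numbers ran from -0.14 to 0.18 over 36 pairs (median -0.03), 2 of them above 0.1. In 28 of 36 cases an array correlated best with its own number. The main fit had no block because the labels do not say that a number marks a shared mouse, litter or day. With the replicate block, Bmp6 gained a call in col LEC minus cap LEC (adjusted p = 0.00366), while Bambi and Fstl1 lost theirs there (0.0524 and 0.0565), Bmp2 in pre-col LEC minus BEC (0.0544), and Id4 and Rgmb in LEC minus BEC (0.0547 and 0.0503). Signs changed for small differences. Without 1 array, col LEC minus cap LEC ran from -0.011 to 0.114 for Bmp2 (-0.015 with loess) and from -0.156 to 0.038 for Eng. Col LEC minus pre-col LEC ran from -0.092 to 0.033 for Bmp2, from -0.097 to 0.173 for Bmp6 (-0.0098 with array weights), from -0.187 to 0.020 for Eng and from -0.027 to 0.030 for Smad6 (0.0072 with array weights). Pre-col LEC minus cap LEC ran from -0.065 to 0.145 for Acvrl1 and from -0.077 to 0.119 for Eng, and was 0.013 with loess for Bmpr2. For Bmper, col LEC minus BEC ran from -0.103 to 0.034 and pre-col LEC minus BEC from -0.133 to 0.0036, the highest value without BEC replicate 3. The order of the 4 group means was the same without any 1 of the 12 arrays for Bmp4, Bmpr2, Gdf10 and Id1, and in 9 to 11 of 12 cases for the other genes. Bmp2 and Bmper lay near the array medians, where a difference is hard to measure.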
